A study of Homo sapiens with 4 samples.

Results

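The genes of the proteasome were examined in RNA sequencing (RNAseq) libraries of IMR-32 cells, a human neuroblastoma line in which MYCN is amplified. The group holds the 45 protein-coding genes, of 60612 genes counted, whose symbol is PSMA, PSMB, PSMC, PSMD, PSME or PSMG followed by a number, without PSMD7 and PSMD14. Cells of both groups expressed a short hairpin RNA under doxycycline control and received doxycycline at 1 µg/mL for 48 h. The 2 shControl libraries came from cells with a control hairpin, which the labels call wild type, and the 2 shNeuroD1 libraries from cells with a hairpin against NeuroD1, a neurogenic transcription factor. A supplementary table of the study names the same hairpin for both shNeuroD1 libraries, so the comparison rests on 1 hairpin in 1 cell line. Whether replicate libraries came from separate cultures is not given in the labels, and p-values then measure only the spread between libraries, which may be technical.

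The proteasome degrades proteins that carry ubiquitin chains, and the study asked how NeuroD1 affects the degradation of N-Myc by this route. Its 20S core is a barrel in which alpha rings form the gated ends and beta rings hold the proteolytic sites. The 19S regulator caps the barrel, binds ubiquitin chains, removes them and threads the substrate inward with a ring of ATPases, and both together form the 26S proteasome. Dedicated chaperones build each part. NFE2L1, a transcription factor that is itself degraded by the proteasome, raises many proteasome genes together when proteasome activity is low. It binds the antioxidant response element with small MAF proteins, as does the related factor NFE2L2.

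The libraries held 14665210 to 16482463 counts, with 26071 to 27121 genes detected in each. NEUROD1 was at 14.6% of its control level in shNeuroD1 (edgeR log2 fold change -2.77), and MYCN RNA did not pass the test (log2 fold change -0.01, adjusted p = 0.886). All 11 markers of sympathetic neuroblasts were detected in every library, and their summed level was 4164 and 4260 CPM (counts relative to library size, with TMM scaling) in shControl and 3959 and 3980 CPM in shNeuroD1. The 8 fibroblast and mesenchymal markers summed to 153.7 and 159.6 CPM in shControl and to 74.01 and 80.59 CPM in shNeuroD1, and FAP was at 0 in every library. PDGFRA (109.7 to 39.7 CPM) and COL1A1 (36.0 to 18.7 CPM) made up most of this sum and were lower, whereas the other 3 markers tested (COL3A1, LUM and PDGFRB) were higher (median log2 fold change over the 5 tested 0.64). Among 7 haematopoietic markers, CD3E and TYROBP were at 0 in every library, and the sum of all 7 lay between 0.567 and 1.25 CPM. Mitochondrial genes accounted for 4.37% and 4.59% of shControl counts and for 5.39% and 5.51% of shNeuroD1 counts. The part of these shifts in the results below was not tested, and in bulk RNA fewer cells of a type and less RNA per cell cannot be told apart.

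Proteasome genes were mostly a little lower after NeuroD1 knockdown. Of the 45 genes, 41 passed the filter on low counts, and 27 of these 41 (65.9%) were lower at an edgeR adjusted p under 0.05, where 28.2% of all 17537 genes tested were called lower. A single gene, PSMG4, was higher (2.44% of the 41), where 26.8% of all genes were called higher, and 13 genes did not pass. The median log2 fold change was -0.22 over the 41 genes and 0.0084 over all genes tested, and 36 of the 41 values were negative. The changes were small in size, from -0.80 for PSMC3 to 0.46 for PSMD5. None of the 41 was beyond a log2 fold change of 1 in size, the limit the study drew in its plot of all genes, where 13.9% of all genes were, and 3 were lower by at least 0.5 on the log2 scale, where 12.6% of all genes were.

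The order of the libraries was compared as well. Both shNeuroD1 libraries lay below both shControl libraries for 30 of the 41 genes (73.2%), against 37.7% of all genes tested, and above them for 3 (7.32%), against 38.4% of all genes. The scaling of the libraries set how many calls were made. With scaling by library size alone the median of all genes moved to 0.120, and 20.8% of all genes were called lower and 34.9% higher. Relative to all genes the proteasome median was -0.231 there and -0.232 with TMM. A change of scaling shifts all genes in this fit by nearly the same amount, so this difference could hardly have varied. With library size alone 16 members were lower and 3 higher (PSMG4, PSMA1 and PSMA2), and the same 16 were lower with each of the 4 scalings. They were PSMB1, PSMB3, PSMB4, PSMB5 and PSMB6 of the beta ring, the ATPases PSMC3, PSMC4, PSMC5 and PSMC6, the base and lid subunits PSMD1, PSMD2, PSMD4, PSMD11 and PSMD12, the activator PSME4 and the chaperone PSMG1. No alpha ring gene was among them. The same 16 were lower in each fit on counts but glmTreat, including DESeq2 and the fits without 1 library, and the other 11 lost their call in at least 1 of these fits.

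**Figure D1:**
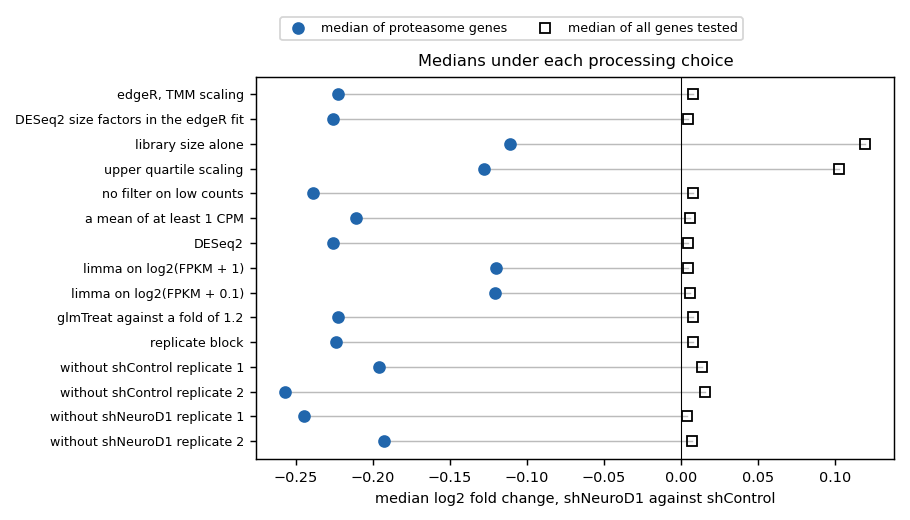
Median log2 fold change (x axis, shNeuroD1 against shControl) of the proteasome genes (filled circles) and of all genes tested (open squares) under each processing choice (rows). The proteasome median lies below 0 in every row, and the distance to all genes is -0.232 with TMM and -0.231 with library size alone, where both medians shift to the right. A change of scaling shifts all genes by nearly the same amount, so this distance could hardly differ between scalings.

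**Figure D2:**
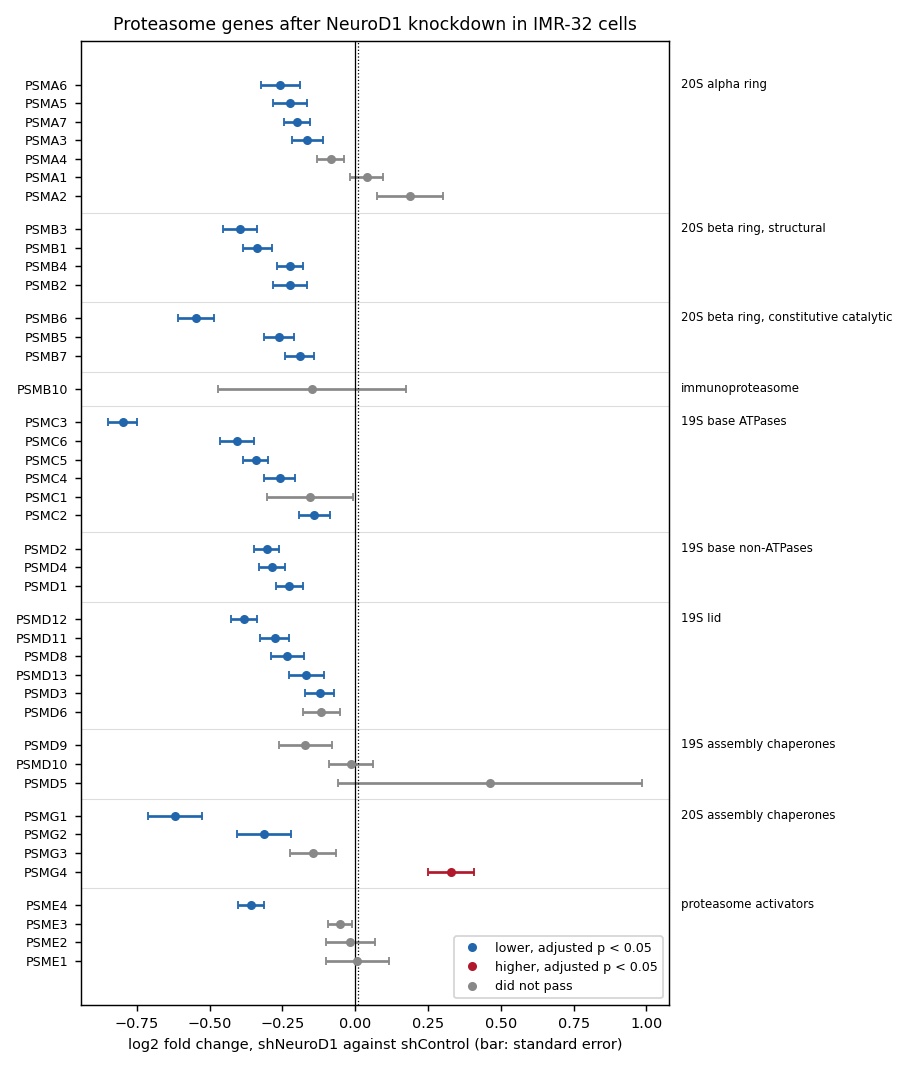
Log2 fold change (x axis, shNeuroD1 against shControl, edgeR) of the 41 proteasome genes tested, in rows grouped by role, with bars for the standard error; the solid line marks 0 and the dotted line the median of all genes tested. Blue points (27 genes, called lower) fill the beta ring and most of the 19S regulator, the only red point (called higher) is PSMG4, and grey points are the 13 genes that did not pass.

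Counts of some members are uncertain because their exons overlap other genes or because pseudogenes carry their names. The use of strand in counting was not given in the sources used here, and reads of overlapping genes could then not be told apart. In GENCODE 29 on GRCh38, 75.8% of the exon bases of PSMC1 lie opposite NRDE2, and 13 pseudogenes are named after PSMC1. The share of exon bases that overlap another gene was also between 15% and 34.8% for PSMA1, PSMA2, PSMB8, PSMB10, PSMC5, PSMD9, PSMG2 and PSMG4, on one strand or the other. Pseudogenes were named after PSMA2 (3), PSMA6 (4), PSMD10 (3) and PSME2 (2), and 1 after each of several others. Over the 19 members whose shared exon bases round to 0.0% and that have no named pseudogene, of which 17 were tested, 15 were lower, none was higher and the median log2 fold change was -0.26.

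The 20S core was examined from its ends inward. The alpha ring, which gates the barrel and receives the regulators, had 4 of 7 genes lower (median -0.16 on the log2 scale). PSMA6 (-0.26), PSMA5 (-0.22), PSMA7 (-0.20) and PSMA3 (-0.16) were lower. PSMA4 (-0.08), PSMA1 (0.04) and PSMA2 (0.19) did not pass, and PSMA1 and PSMA2 were called higher with library size or upper quartile scaling. PSMA7 had 214.7 and 207.1 CPM in shControl and 186.2 and 180.9 CPM in shNeuroD1. By contrast PSMA1 had 88.67 and 80.54 CPM in shControl and 86.24 and 87.54 CPM in shNeuroD1, so that its groups overlapped. PSMA8, the testis counterpart of PSMA7, had 0 counts in every library, which allows at most 0.189 to 0.204 CPM at a limit of 3 counts. All such limits cover counting error only.

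The beta ring was lower in all 7 of its constitutive genes (median -0.26 on the log2 scale). Among the structural subunits, PSMB3 was lower by the most (log2 fold change -0.39), followed by PSMB1 (-0.34), PSMB4 (-0.23) and PSMB2 (-0.22). The catalytic subunits each cut after a different kind of residue. PSMB6 (chromosome 17, 4796144 to 4798503, GRCh38) carries the caspase-like site. It had 75.99 and 71.73 CPM in the shControl libraries and 52.33 and 48.73 CPM in the shNeuroD1 libraries. Its groups did not overlap, and its log2 fold change was -0.55 (edgeR, SE 0.0624, adjusted p = 5.9e-09), or 68.4% of the control level. PSMB5 (chromosome 14, 23016543 to 23035230) carries the chymotrypsin-like site, which the inhibitor bortezomib blocks. It had 145.3 and 132.4 CPM in shControl and 115.7 CPM in each shNeuroD1 library (log2 fold change -0.26, SE 0.0513, edgeR adjusted p = 6.0e-05). PSMB7 (chromosome 9, 124353466 to 124415444), with the trypsin-like site, had 139.0 and 134.1 CPM in shControl and 124.0 and 115.3 CPM in shNeuroD1 (log2 fold change -0.19, SE 0.0504, edgeR adjusted p = 0.0018).

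Ratios taken within a library do not depend on the scaling. Per kilobase of exon, PSMB6 stood at 32.8% and 33.0% of PSMB5 and PSMB7 summed in the shControl libraries and at 26.8% and 25.9% in the shNeuroD1 libraries. PSMB6 thus fell by more than its catalytic neighbours in both libraries, a description of a gene picked for its size of change. The alpha ring as a whole stood at 47.2% and 47.4% of the beta ring in shControl and at 52.3% and 52.6% in shNeuroD1. These shares differed between the groups by more than between the libraries of a group.

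The inducible catalytic subunits were almost absent in both groups. PSMB8, PSMB9 and PSMB10 replace PSMB5, PSMB6 and PSMB7 in the immunoproteasome, the form that interferon induces and that serves antigen processing, and PSMB11 belongs to the thymoproteasome. PSMB8 had 0 counts in every library, beside 1760 to 2142 counts of PSMB5. At a limit of 3 counts, this allows a level per length of at most 0.0825% to 0.1004% of that of PSMB5. PSMB9 had 1 count in the second shControl library, or 0.0414% of the level of PSMB6. It had 0 in the other 3 libraries, which allows at most 0.126% to 0.191% of the level of PSMB6 in them. PSMB11 had 1 count in each shControl library and 0 in each shNeuroD1 library. None of these could be tested, and a difference between the groups was not detectable at this depth.

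PSMB10 was the exception. Its counts were 31 and 28 with the control hairpin and 24 and 29 after knockdown, or 2.10, 1.76, 1.578 and 1.904 CPM. Its groups overlapped, and the log2 fold change of -0.15 did not pass (edgeR, SE 0.323, adjusted p = 0.726). Its level per length was 1.46% and 1.27% of that of PSMB7 in shControl and 1.23% and 1.59% in shNeuroD1. PSMB10 shares 34.8% of its exon bases with another gene model on its strand, so that these counts may be too high or too low.

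**Figure D3:**
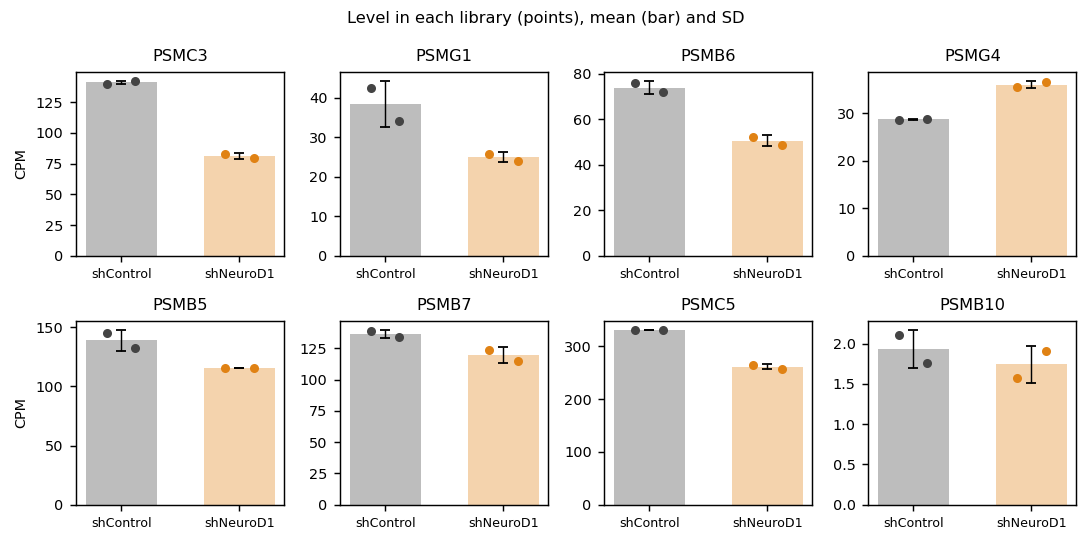
Level (y axis, TMM-scaled CPM, from 0) of 8 proteasome genes in each of the 2 shControl and 2 shNeuroD1 libraries (points), with the mean (bar) and SD. The groups do not overlap for PSMC3, PSMG1, PSMB6, PSMB5, PSMB7 and PSMC5 (lower) or PSMG4 (higher), and they overlap for PSMB10, whose axis reaches only about 2 CPM.

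The 19S regulator was lower in 13 of its 15 genes, and all 15 log2 fold changes were negative (median -0.26). Its ATPase ring, which unfolds the substrate and opens the alpha gate, held the largest fall of all members. PSMC3 (Rpt5, chromosome 11, 47418769 to 47426473) had 140.2 and 142.1 CPM in the shControl libraries and 83.02 and 79.33 CPM in the shNeuroD1 libraries. The groups were far apart, with means of 141.2 ± 1.34 and 81.2 ± 2.61 CPM (SD, n = 2 each), and knockdown cells kept 57.5% of the control level. PSMC3 changed by -0.80 on the log2 scale (edgeR, SE 0.0512, adjusted p = 1.0e-14). This value lay between -0.83 and -0.69 over the scalings and filters of counts and when any library was left out. In gene FPKM the groups overlapped, with 17.83 and 22.86 in shControl and 12.22 and 21.40 in shNeuroD1, and the log2 fold change was -0.30 and -0.32 on the 2 FPKM scales (limma adjusted p = 0.571 and 0.569).

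The other ATPases moved less. PSMC6 (-0.41), PSMC5 (-0.34), PSMC4 (-0.26) and PSMC2 (-0.14) were lower, and PSMC1 (-0.15), whose counts are uncertain, did not pass (edgeR adjusted p = 0.389). The 6 ATPases occupy the ring in equal numbers. Per kb of merged exon their RNAs ranged from 73.7 CPM for PSMC5 to 14.0 for PSMC6 in shControl, with PSMC1 at 1.59. This range depends on the annotated exon length, which was 7482 bases for PSMC6 and 4490 for PSMC5. In CPM alone, PSMC5 had 331.1, PSMC6 105.1, PSMC2 104.9 and PSMC4 96.1 in shControl. PSMC3 stood at 38.3% and 39.7% of the other 5 ATPases summed in shControl and at 27.7% and 26.9% in shNeuroD1. On counts its share of the ring's RNA was lower in both shNeuroD1 libraries whatever the scaling. PSMC3 was picked for the largest fall, so a lower share follows from that choice and is a description only.

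The non-ATPase subunits of the base were lower in all 3 genes. PSMD2 (-0.30) and PSMD1 (-0.23) are the scaffold subunits that dock ubiquitin receptors and substrates, and PSMD4 (-0.29) is an intrinsic ubiquitin receptor. In the lid, which positions the deubiquitinase PSMD14, PSMD12 (-0.38), PSMD11 (-0.28), PSMD8 (-0.23), PSMD13 (-0.17) and PSMD3 (-0.12) were lower and PSMD6 (-0.12) did not pass. PSMD12 had 199.1 and 191.9 CPM in shControl and 150.6 and 149.4 CPM in shNeuroD1, whereas PSMD6 had 74.56 and 66.06 CPM in shControl and 61.79 and 67.84 CPM in shNeuroD1. The lid thus ranged from groups far apart to groups that overlapped. PSMD13 (edgeR adjusted p = 0.0174) and PSMD3 (edgeR adjusted p = 0.0406) were near the threshold. With PSMA3, PSMC2 and PSMG2 they were the 5 members called lower that did not pass in DESeq2 (adjusted p from 0.0717 for PSMA3 to 0.262 for PSMG2).

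Of 11 assembly chaperones and activators, 3 were lower and 1 higher, where 28.2% of all genes tested were called lower and 26.8% higher. The number lower was thus near the share of all genes. Of the 11 values 8 were negative, and the median log2 fold change was -0.05. The difference of these genes from the subunits was not tested. Among the chaperones of the 20S core, PSMG1 and PSMG2 pair with each other, as do PSMG3 and PSMG4, and both pairs help the alpha ring to form. PSMG1 (chromosome 21, 39174769 to 39183851) had 42.54 and 34.20 CPM in shControl and 25.83 and 24.04 CPM in shNeuroD1. Its log2 fold change was -0.62 (edgeR, SE 0.0915, adjusted p = 8.2e-07), and between -0.78 and -0.47 when 1 library was left out. Its shControl libraries lay further apart than its shNeuroD1 libraries. PSMG4 (chromosome 6, 3231403 to 3303373) had 28.70 and 28.78 CPM in shControl and 35.50 and 36.64 CPM in shNeuroD1. It was the only member called higher, by 0.33 on the log2 scale (edgeR, SE 0.0788, adjusted p = 7.0e-04), and 15% of its exon bases lie opposite other genes. In gene FPKM its groups overlapped, with 7.587 and 9.048 in shControl and 11.95 and 7.725 in shNeuroD1.

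Their partners were less clear. PSMG2 was lower (log2 fold change -0.31, edgeR adjusted p = 0.0049), but its shNeuroD1 libraries differed, with 36.48 and 26.79 CPM against 39.69 and 38.98 CPM in shControl. Without the second shNeuroD1 library its value was -0.11 (edgeR adjusted p = 0.407), and without the first -0.56. The call was also lost without either shControl library, with library size or upper quartile scaling, with no filter and in DESeq2 (adjusted p = 0.262). PSMG3 did not pass (-0.14, edgeR adjusted p = 0.121). Per length, PSMG4 stood at 15.2% and 16.1% of PSMG3 in shControl and at 21.0% and 22.4% in shNeuroD1, while PSMG1 stood at 143.0% and 117.1% of PSMG2 in shControl and at 94.5% and 119.7% in shNeuroD1. On counts the first ratio kept the groups apart and the second did not. In gene FPKM the first did not either, as PSMG3 had 2.092 and 15.3 in shControl and 3.709 and 12.82 in shNeuroD1.

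None of the 3 chaperones of the 19S base passed the test. PSMD10 (gankyrin) stood at -0.01 and PSMD9 at -0.17 on the log2 scale. PSMD5 was counted 6 and 10 times in shControl libraries and 10 and 12 times in shNeuroD1 libraries, too few to place its log2 fold change of 0.46 (edgeR, SE 0.522, adjusted p = 0.474). Of the activators, which open the 20S core without ATP, PSME4 was lower (-0.36, edgeR adjusted p = 4.2e-08), with 215.5 and 223.9 CPM in shControl and 169.9 and 173.3 CPM in shNeuroD1. PSME1 (0.01) and PSME2 (-0.02), the interferon-inducible pair, and PSME3 (-0.05), the nuclear activator, did not pass. The values of PSME2, PSME3, PSMD10 and PSMA4 turned positive with library size or upper quartile scaling.

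Levels of different genes were compared as CPM per kb of merged exon. The highest in shControl were PSMB4 with 126.7 and 119.2 and PSMA7 with 122.7 and 118.3 CPM per kb, and these 2 did not differ beyond their spread. PSMB1 (95.3 ± 5.94, SD, n = 2), PSMD4 (82.0 ± 3.62), PSMB5 (78.7 ± 5.19), PSMB7 (76.4 ± 1.96) and PSMC5 (73.7 ± 0.140) followed. PSMA7 stood above PSMB1, PSMB1 above PSMD4 and PSMB7 above PSMC5 by more than the spread of both, and the other neighbours in this order did not differ beyond it. The lowest genes tested were PSMD5 with 0.0919 and 0.142, PSMB10 with 1.14 and 0.952 and PSMC1 with 1.63 and 1.55 CPM per kb in shControl. In shNeuroD1 the lowest genes had 0.148 and 0.178 (PSMD5), 0.851 and 1.03 (PSMB10) and 1.29 and 1.57 CPM per kb (PSMC1). Exon length is that of all annotated transcripts merged, so a gene with long minor transcripts appears low. The low place of PSMC1, whose counts are uncertain, held on counts only. In gene FPKM PSMC1 had 13.3 and 14.97 in shControl and 17.39 and 23.46 in shNeuroD1. PSMB10 stayed low there, with 1.866 and 0.9098 in shControl and 1.921 and 1.376 in shNeuroD1.

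**Figure D4:**
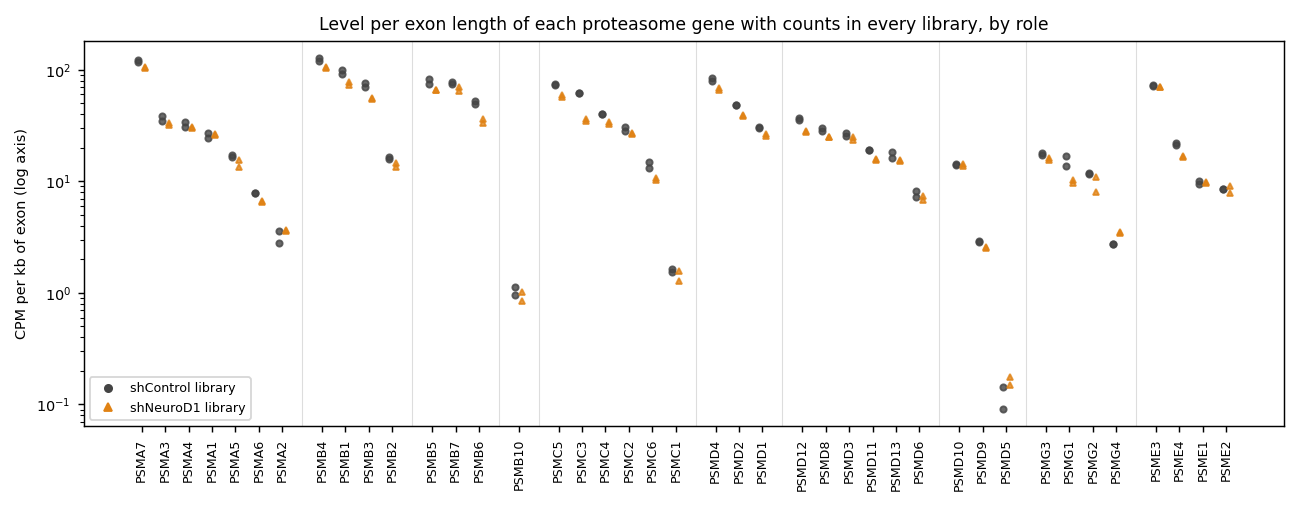
Level per kilobase of exon (y axis, TMM-scaled CPM per kb, log axis) of each proteasome gene with counts in every library, grouped by role and sorted within a role, for the shControl libraries (grey circles) and the shNeuroD1 libraries (orange triangles). Most constitutive subunits lie between about 10 and 120 CPM per kb, while PSMB10, PSMC1 and PSMD5 lie below 2. PSMC1 is low on counts only (13.3 to 23.46 in gene FPKM).

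Summed over members, the level was lower in shNeuroD1 in each class. All 45 genes summed to 1487 and 1418 CPM per kb in shControl and to 1225 and 1198 in shNeuroD1, a ratio of 0.834. The 20S core summed to 780.4 and 731.8 in shControl and to 643.2 and 628.9 CPM per kb in shNeuroD1 (ratio 0.841). The 19S regulator summed to 525.1 and 511.1 in shControl and to 418.3 and 409.7 CPM per kb in shNeuroD1 (ratio 0.799). Chaperones and activators together differed least, from 180.0 and 173.7 to 162.1 and 158.7 CPM per kb (ratio 0.907). This ratio was 0.980 with library size alone and 1.158 in gene FPKM, where 9 of the 11 genes were listed. As a share of the 20S sum, the 19S sum came to 67.3% and 69.8% in the shControl libraries and to 65.0% and 65.2% after knockdown. No test was made on these sums, and 2 libraries against 2 could not reach an exact permutation p under 0.05.

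The partners of the proteasome that the naming rule leaves out were mixed. Counts of calls in this and the next lists stand against 28.2% lower and 26.8% higher among all genes tested. Of 14 such genes, 6 were lower, 4 higher and 4 did not pass (median log2 fold change -0.13). The lid deubiquitinase PSMD14 was lower (-0.36, edgeR adjusted p = 9.7e-07), with 97.36 and 94.59 CPM in shControl and 74.28 and 74.93 CPM in shNeuroD1, and the lid subunit PSMD7 did not pass (-0.13, edgeR adjusted p = 0.0902). The deubiquitinase UCHL5, which edits chains at the 19S regulator, was lower as well (-0.57, edgeR adjusted p = 2.1e-10). SEM1, the smallest lid subunit, was higher (0.35, edgeR adjusted p = 6.2e-06), with 68.46 and 66.44 CPM in shControl and 89.60 and 82.16 CPM in shNeuroD1. PSMF1, a 20S inhibitor in vitro, was higher (0.16, edgeR adjusted p = 0.0293), a call lost in DESeq2 (adjusted p = 0.185), with no filter and without any 1 of the 4 libraries (edgeR adjusted p from 0.066 to 0.157), and POMP, which matures the 20S core, did not pass (-0.08, edgeR adjusted p = 0.286).

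Genes upstream of the proteasome moved in both directions. Of 11 ubiquitin receptor and p97 segregase genes tested, 6 were lower and 2 higher (median -0.19), with UBQLN2, a shuttle factor, at 0.79 (edgeR adjusted p = 1.0e-13) and FAF2, a p97 adaptor of the endoplasmic reticulum, at -0.53 (edgeR adjusted p = 2.4e-10). Among 6 ubiquitin and E1 genes, 3 were lower and 1 higher (median -0.12). The gene that was higher was UBA1, the main ubiquitin-activating enzyme. It had 241.9 and 245.2 CPM in shControl and 461.4 and 439.4 CPM in shNeuroD1, and its change on the log2 scale was 0.89 (edgeR, SE 0.0425, adjusted p = 5.7e-18). UBA1 thus stood at 184.9% of its control level where 27 proteasome genes were lower.

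The transcription factors known to drive proteasome genes differed. NFE2L1 had 448.3 and 462.5 CPM in shControl and 478.9 and 464.5 CPM in shNeuroD1, and its log2 fold change of 0.05 did not pass (edgeR adjusted p = 0.304). NFE2L2 had 165.3 and 158.4 CPM in shControl and 71.91 and 73.49 CPM in shNeuroD1. It was lower by the most among the 11 genes of the pathway, at -1.15 (edgeR, SE 0.0514, adjusted p = 8.8e-19). The related factor NFE2L3 was higher (0.56, edgeR adjusted p = 3.5e-08), as was the small MAF gene MAFK (0.90, edgeR adjusted p = 6.3e-04). In all, 3 of the 11 genes were lower and 2 higher (median -0.01), shares near those of all genes. Of 7 NFE2L2 target genes outside the proteasome that were tested, 4 were lower and none higher (median -0.24), among them TXNRD1 (-0.58, edgeR adjusted p = 1.9e-13) and NQO1 (-0.52, edgeR adjusted p = 2.3e-04), which encode redox enzymes. Whether NFE2L2 bears on the proteasome genes was not tested.

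Antigen processing genes, which work beside the immunoproteasome, included several that were almost absent as well. TAP1, the peptide transporter gene next to PSMB9, had 1 count or none in every library, and HLA-B and HLA-C had 4 counts or fewer. B2M, the light chain of class I molecules, did not pass (156.1 CPM in shControl and 161.3 CPM in shNeuroD1, edgeR adjusted p = 0.456). Of 10 genes of the list tested, 2 were lower and 3 higher (median 0.21), the higher ones being the aminopeptidases ERAP1 (0.74, edgeR adjusted p = 1.5e-05) and ERAP2 (1.44, edgeR adjusted p = 0.0241, 3 to 15 counts, a call lost in DESeq2 and without any 1 of the 4 libraries) and the chaperone TAPBP (0.53, edgeR adjusted p = 1.8e-04).

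**Figure D5:**
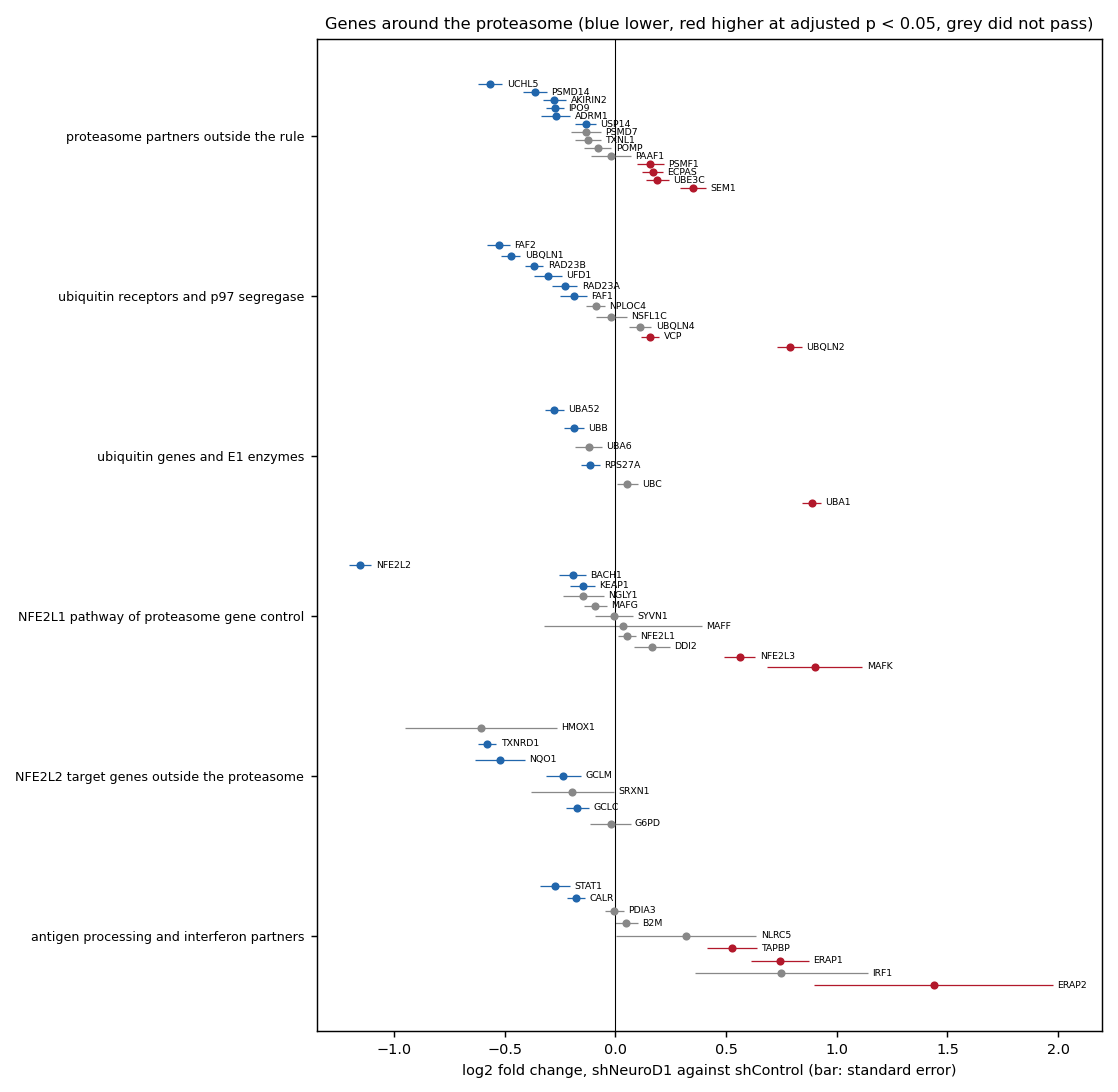
Log2 fold change (x axis, shNeuroD1 against shControl, edgeR) of genes around the proteasome in 6 lists (rows), with bars for the standard error; blue genes were called lower, red genes higher, and grey genes did not pass (1 gene of the antigen processing list is not drawn). UBA1 and UBQLN2 stand out on the higher side of ubiquitin genes and receptors and NFE2L2 on the lower side, while NFE2L1 lies at 0.05.

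Promoter sequence of the members was described because NFE2L1 and NFE2L2 bind the antioxidant response element. RefSeq windows of 300 bases (250 before and 50 after the start, GRCh38.p14) were at hand for 39 of the 45 members, 47 windows in all, and not for PSMA7, PSMB1, PSMB6, PSMB7, PSMD4 and PSMG3. The core of the element, TGACNNNGC on either strand, was in 15 of the 47 windows (31.9%) and in 13.3% of all 35116 windows. The stretches below lie before the start and outside every annotated gene, with the core in capitals, and read along the gene's strand. They are shown because they hold the element in genes on both sides of the test, the first 3 lower after knockdown and the last not passing. Of the first 3, PSMD3 lost its call in DESeq2 (adjusted p = 0.16). PSMD9, which did not pass either, held 2 further cores of this kind that are not printed.
PSMB3 (chr17:38752622-38752660, plus strand): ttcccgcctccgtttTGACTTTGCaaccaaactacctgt
PSMD12 (chr17:67366719-67366757, minus strand): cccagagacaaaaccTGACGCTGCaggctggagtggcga
PSMD3 (chr17:39980755-39980793, plus strand): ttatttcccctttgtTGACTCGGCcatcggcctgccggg
PSME1 (chr14:24136093-24136131, plus strand): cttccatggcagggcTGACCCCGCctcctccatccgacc

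Lower genes were found among members with and without the element. Of the 15 members with the core, 14 were tested, 9 were lower and the median log2 fold change was -0.24. Of the 24 members with a window and no core, 21 were tested, 13 were lower, 1 was higher and the median was -0.17. PSMC3, the member with the largest fall, had no core in its window. The E-box CAGATG, a form bound by neurogenic factors such as NeuroD1, was in 12.8% of the members' windows and in 14.7% of all windows, and CAGCTG in 10.6% and 17.9%. The MYC E-box CACGTG was in 6.38% and 7.26%, CCAAT in 38.3% and 34.6%, and the ETS core GGAAG in 80.9% and 71.9%. The site of NRF1, a factor distinct from NFE2L1, was in 4.26% and 1.24%, the former being the windows of PSMA4 alone. The members' windows held a median of 62.0% G and C and all windows 58.7%. A match describes letters in a window and shows no binding.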

How the data were processed

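RNAseq was analysed for 2 shControl and 2 shNeuroD1 libraries. The authors deposited raw read counts per Ensembl gene, made per the submitters' processing notes with cutadapt 1.9.1, HISAT2 2.0.1 and HTSeq 0.6.1 on hg38. The strand setting and annotation release are not given in the sources used here. The authors also deposited FPKM values of transcript starts, ends and splicing events, and starts were summed to gene FPKM. Counts were fitted in edgeR 4.0.16 under R 4.3.3 (filterByExpr minimum count 10, TMM, two-sided quasi-likelihood F test, Benjamini-Hochberg over 17537 genes, calls at an adjusted p under 0.05). The fit was tested on simulated data in which few genes changed, equally in both directions. That setting cannot show which scaling is right where many genes change, as in these libraries. Alternatives were other scalings and filters, DESeq2 1.42.0, limma 3.58.1 on log2(FPKM + 1) and log2(FPKM + 0.1), glmTreat, a replicate block and leaving out each library. Libraries of a group differed by more than sampling noise (chi-square per degree of freedom 2.53 and 1.54). Columns of the authors' own comparisons were not used. Members and lists were chosen with earlier results of these data known. Values per library are given for members called with a log2 fold change of at least 0.5 in size, the catalytic subunits, the highest and lowest levels and untested members. Partner genes are named if called at that size, with NFE2L1, POMP, PSMF1, PSMD7 and PSMD14. Other members with such values (PSMA7, PSMA1, PSMD12, PSMD6, PSMG2, PSME4), SEM1, TAP1, HLA-B, HLA-C and B2M were chosen after their values were seen. 1 gene of the antigen processing list and 1 haematopoietic marker are not reported by name here.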

Additional observations from a re-analysis of the deposited data

Results flagged for a closer look

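In the transcript tables, which the comparisons do not use, 663 events (starts, ends and splicing events) were listed for 40 of the 45 proteasome genes. A transcript start of PSMC1 (chromosome 14, 90257347 to 90258161) was listed at 2.19 and 4.203 FPKM in the shNeuroD1 libraries and in neither shControl library, with a mean of 3.19 FPKM. It was picked out as a signal outside the main measurement that is absent from the controls. Events at 0 FPKM are not listed in these tables, depth per event is unknown, and PSMC1 is the member whose reads overlap NRDE2 and have 13 named pseudogenes. In the other direction, 4 events of PSMA7 and PSMG1 were listed in both shControl libraries (1.43 to 2.58 FPKM) and in neither shNeuroD1 library.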

How the results depend on the processing

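No alternative turned the sign of the members' median, and none placed a member beyond a log2 fold change of 1. The 27 members lower of 41 (28.2% of all genes) became 16 with library size alone (20.8% of all genes). With glmTreat against a fold of 1.2, 8 of the 41 were lower, where 15.9% of all genes were called lower. With limma on either FPKM scale 0 of 38 were lower (4 at an unadjusted p under 0.05), where 2.76% and 2.55% of all genes were called lower. The 1 member higher became 3 with library size or upper quartile scaling and 0 with glmTreat and FPKM. The median of -0.223 became -0.111 (library size), -0.128 (upper quartile), -0.120 and -0.121 (FPKM + 1 and + 0.1). The summed ratio of 0.834 became 0.901 with library size and 0.922 in FPKM, where only 40 of the 45 genes were listed. In FPKM PSMC2 was at 0 to 0.0790, beside 1429 to 1606 counts, so the FPKM sum nearly leaves it out. An alternative chosen after seeing the data, members whose shared exon bases round to 0.0% and with no named pseudogene, gave 15 lower and a median of -0.259 from fewer genes. Library size and upper quartile move all genes upward. Why FPKM gave no calls was not tested.

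Without 1 library the members' medians lay from -0.257 to -0.193, and calls in these fits assume that a lone library varies like the other group. With the replicate block 27 were lower and 1 higher (median -0.224). The libraries gave no sign of pairing by the numbers in their titles (correlation of deviations 0.0133 over 11024 genes), which cannot exclude a pairing with a small effect. The block changed no count of the members' calls. DESeq2 called 22 lower and 1 higher. Over 58 named genes, 400 of 558 alternative values stayed on the same side of 0 and of the threshold, 117 lost the call, 6 gained one and 35 turned sign, and of 232 values without 1 library 192, 32, 2 and 6 did.

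With library size and upper quartile scaling the log2 fold changes that turned sign were 0.028 and 0.011 (PSMA4), 0.097 and 0.081 (PSMD10), 0.096 and 0.079 (PSME2), 0.059 and 0.042 (PSME3) and 0.032 and 0.016 (POMP). With FPKM + 1 and FPKM + 0.1 they were 0.003 and 0.003 (PSMA4), 0.014 and 0.014 (PSMA6), 0.171 and 0.294 (PSMB10), 0.489 and 0.514 (PSMC1), 0.112 and 0.119 (PSMD10), 0.139 and 0.147 (PSMD11), -0.071 and -0.077 (PSME1), 0.078 and 0.085 (PSME2), 0.494 and 0.498 (PSME3), 0.185 and 0.272 (PSMG3), 0.084 and 0.089 (FAF2) and -0.005 and -0.006 (NFE2L1). PSME1 was -0.007 with no filter. Without 1 library PSMA1 ranged from -0.040 to 0.099, PSMD10 from -0.036 to 0.003, PSME1 from -0.056 to 0.051, PSME2 from -0.128 to 0.085 and POMP from -0.192 to 0.015. Members with 0 to 3 counts are limited by depth.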
